A study of Mus musculus with 2 samples.

Results

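Complement is a cascade of plasma and tissue proteins that marks cells and microbes for removal. It is started by the classical, lectin or alternative pathway, and all of them meet at the cleavage of C3. The liver makes most of the circulating proteins, and fibroblasts are known to make several components locally. The values below describe 9 complement genes in mesenchymal cells of the mouse large intestine: C1ra, C1rb, C1s1 and C1s2, which encode the proteases of the C1 complex, C4b, C3, Cfb, Cfd and Serping1, which encodes the C1 inhibitor. The genes were chosen by name, and all 9 were found among the 32285 genes counted in both tables. C1ra was added to C1rb and C1s1 to C1s2 before the libraries were compared, because the members of each pair are near copies, which left 7 measures.

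The cells were sorted as negative for CD45, EpCAM and CD31 and positive for gp38 (podoplanin) and profiled by droplet single-cell RNA sequencing of transcript 3′ ends, with 1 library per group. The GF library came from Balb/c mice and the ff library from C57BL/6 mice. Adult mice and germ-free mice are named in the series' design text. Germ-free status is given only by the library name GF and the name ff is not spelled out, so status, strain and library cannot be told apart. The labels name no mutant allele and no treatment for either group and do not give the number of mice pooled. With 1 library per group no difference has a replicate check, no test was made, and the intervals given cover counting error only.

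Of 16388 GF and 13704 ff barcodes, 14286 and 12152 were retained as cells. A gate on each cell's own markers kept 12707 GF cells (88.9%) and 11858 ff cells (97.6%) as mesenchymal: at least 5 UMIs (unique molecular identifiers, each standing for 1 captured transcript) and at least 0.1% of all UMIs from the fibrillar collagen genes Col1a1, Col1a2 and Col3a1, and at most 1 UMI in all of 7 leukocyte, epithelial and endothelial genes. A UMI of Pdpn, the gene of gp38, was found in 77.9% of gated GF and 82.1% of gated ff cells, against 1.54% of GF and 11.3% of ff lymphocyte-like cells. The gated cells had a median of 6675 UMIs in GF and 8901 in ff. The libraries shared 55 cell barcodes, 40 of them gated in both. Gated cells were grouped into clusters found without any complement gene, and the 15 clusters with at least 50 gated cells in each library, named here by their leading gene, held 12668 GF and 11823 ff cells. Of these, 10 could be named from markers: 3 as lamina propria fibroblast-like (led by Col6a5, Cd36 and Slc25a27), 2 as adventitial or submucosal fibroblast-like (Cilp and Cmah), 2 as Foxl1-high-like (Wif1 and Nrg1), 1 as reticular or lymphoid-organising stroma-like (Cxcl13), 1 as interferon-activated fibroblast-like (Cxcl9) and 1 as smooth muscle or myofibroblast-like (Actg2). The other 5 stayed unnamed, among them those led by Stmn2, Sfrp2, Ntrk3 and Myoc. The Ntrk3-led cluster had 3 adventitial or submucosal markers at 2-fold or more (Cd81, Ackr4 and Rspo3) but missed the further conditions for a name. The Actg2-led cluster also had all listed pericyte markers at 2-fold or more (Rgs5, Cspg4, Notch3, Kcnj8, Abcc9 and Higd1b), so its name does not exclude pericytes. The Sfrp2-led cluster held 1527 gated GF cells and 83 gated ff cells, and the Stmn2-led cluster 321 GF cells (2.53%) and 1984 ff cells (16.7%), so each came mostly from 1 library and may follow that library more than a cell type.

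Promoter sequence is shown for C3, on whose steps between clusters and libraries much of the description turns, and for the C1rb and C1ra pair, whose UMIs were divided differently in the 2 libraries. Windows from 250 bases before to 50 after the start were matched for 6 of the 9 genes in the RefSeq promoter table (GRCm38.p6): C3, Cfd, C1ra, C1rb, C1s1 and C1s2. The C3 window lies on the minus strand at chr17:57228087-57228386. Its capitals mark the match found to the C/EBP motif (TTGCNNAA, both strands searched), 45 bases before the start. C/EBP proteins are transcription factors known from acute-phase genes. The window held no match to the NF-kB motif or the interferon-response motif ISRE, which says only that these letters are not in it. Of all 32851 windows, 10.8% held the C/EBP match, 1.20% the NF-kB and 3.44% the ISRE match. The letters of the NF-kB and C/EBP motifs were narrowed after looser ones had been searched.
C3: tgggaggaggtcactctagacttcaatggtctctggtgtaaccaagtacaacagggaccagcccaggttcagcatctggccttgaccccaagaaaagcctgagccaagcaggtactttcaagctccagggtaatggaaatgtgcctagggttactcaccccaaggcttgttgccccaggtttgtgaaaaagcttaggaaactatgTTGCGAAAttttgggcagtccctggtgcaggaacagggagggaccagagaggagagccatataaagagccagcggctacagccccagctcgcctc

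The windows of C1rb and C1ra could be aligned over 150 columns, with 139 identical bases (92.7%). The aligned stretches lie on the plus strand at chr6:124570180-124570328 (C1rb) and chr6:124512522-124512670 (C1ra), and the capitals mark the bases that differ between them or face a gap. Each stretch held 1 C/EBP match.
C1rb: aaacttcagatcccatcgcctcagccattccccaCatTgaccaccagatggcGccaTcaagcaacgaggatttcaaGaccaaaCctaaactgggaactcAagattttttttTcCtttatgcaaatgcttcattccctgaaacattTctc
C1ra: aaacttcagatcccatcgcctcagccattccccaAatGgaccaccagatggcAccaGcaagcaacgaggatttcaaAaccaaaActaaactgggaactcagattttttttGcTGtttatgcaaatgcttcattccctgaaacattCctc

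C1r and C1s are serine proteases that sit on C1q. Once C1q binds its target, C1s cleaves C4 and C2. The pair C1ra and C1rb had 260 counts per 1000000 UMIs (CPM; 95% Poisson interval 256 to 263) in GF cells and 288 CPM (285 to 291) in ff cells. The log2 ratio of GF over ff, taken after adding 1 CPM, was -0.15 (conditional binomial interval -0.17 to -0.12). The pair C1s1 and C1s2 had 544 CPM (539 to 549) in GF cells and 612 CPM (607 to 617) in ff cells, with a log2 ratio of -0.17 (-0.19 to -0.15). Neither difference came near the 1.5-fold used here as a mark of size.

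The copies within each pair differed far more than their sums. C1rb had 10402 UMIs (118 CPM) in GF cells and 24 UMIs (0.224 CPM) in ff cells, and C1ra had 142 CPM in GF cells and 288 CPM in ff cells. C1rb thus held 45.3% of the pair's UMIs in GF (Clopper-Pearson interval 44.6 to 45.9) and 0.0777% in ff (0.0498 to 0.116). C1s2 had 9419 UMIs (106 CPM) in GF cells and 36 UMIs (0.336 CPM) in ff cells, and C1s1 had 438 CPM in GF cells and 612 CPM in ff cells. C1s2 held 19.6% of its pair's UMIs in GF and 0.0549% in ff. The division hardly varied between clusters of a library: over the 15 clusters, C1rb held 38.0 to 49.3% of its pair in GF and 0 to 0.175% in ff, and C1s2 held 17.5 to 22.3% in GF and 0 to 0.190% in ff. The longest annotated transcripts of C1rb and C1ra are identical at 97.9% of aligned bases and those of C1s2 and C1s1 at 96.0%. These alignments cover 2432 and 2644 columns, while the C1ra and C1s1 transcripts are 2981 and 2946 bases long. Identity at the 3′ ends, which the libraries count, was not examined on its own. How the counting divided reads between such copies was not tested, so the levels of the 4 single genes are uncertain. The processing notes name only the genome mm10, while the libraries differ in strain (Balb/c in GF, C57BL/6 in ff). Whether this bears on the division was not tested either. All 4 lie on chromosome 6 within a stretch from C1ra at chr6:124512405-124523443 to C1s2 at chr6:124624625-124636085. Gm16567, annotated antisense to C1s1, had 0.215 CPM in GF and 0.354 CPM in ff.

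**Figure D1:**
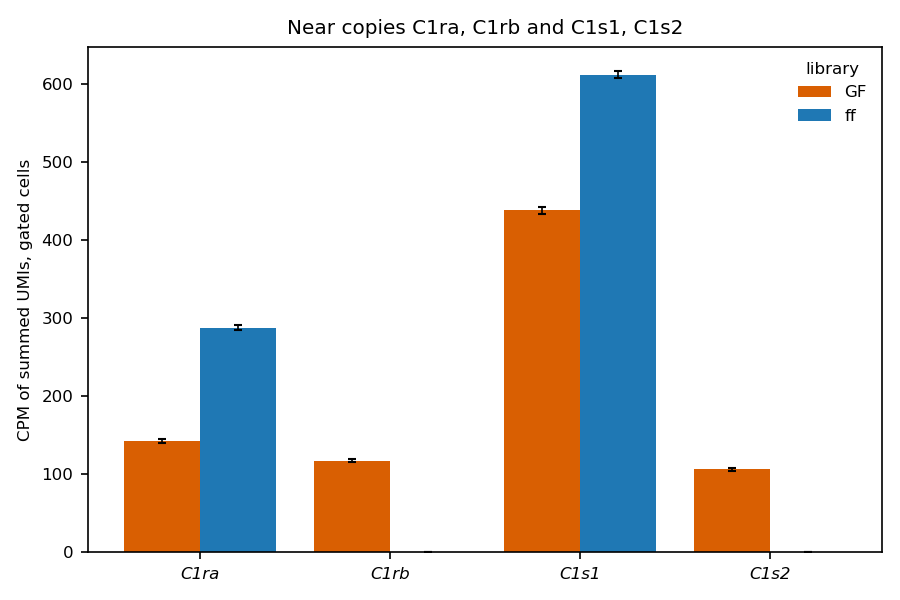
Level of each of the 4 near-copy genes over all gated cells (bars, CPM of summed UMIs, axis from 0) with 95% Poisson intervals, GF left of ff. C1rb and C1s2 stand at 118 and 106 CPM in GF, against 0.224 and 0.336 CPM in ff, where the bars cannot be seen.

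Both pairs were detected in every cluster, and their levels spanned a narrow range. C1ra and C1rb together were highest in the unnamed Ntrk3-led cluster, at 439 CPM in GF and 469 CPM in ff, and in the interferon-activated fibroblast-like Cxcl9-led cluster, at 375 CPM in GF and 473 CPM in ff. They were lowest in the smooth muscle or myofibroblast-like Actg2-led cluster, at 99.7 CPM in GF and 93.6 CPM in ff. The next lowest in GF was the Nrg1-led cluster, at 107 CPM in GF and 199 CPM in ff. The highest cluster was 4.40 times the lowest in GF and 5.05 times in ff.

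C1s1 and C1s2 together were highest in the Ntrk3-led cluster, at 859 CPM in GF and 993 CPM in ff, and in the Cxcl9-led cluster, at 828 CPM in GF and 1015 CPM in ff. They were lowest in the Actg2-led cluster, at 271 CPM in GF and 373 CPM in ff. The span was 3.16 times in GF and 2.72 times in ff. Of the 14 pairs of neighbours in the order of clusters, the ranges over the libraries overlapped for 13 in each pair of genes, so most of the order is not resolved. Within the 15 clusters, C1s1 and C1s2 together had log2 ratios of GF over ff from -0.64 to -0.09. They were at least 1.5-fold lower in GF in 4, among them those led by Col6a5 (-0.64), Nrg1 (-0.64) and Wif1 (-0.60). Of 4792 genes measured in every cluster, 7.72% were that much lower in at least as many. The C1r pair had log2 ratios from -0.88 to 0.09. It was at least 1.5-fold lower in GF in 1 cluster, the Nrg1-led (-0.88), which 29.6% of these genes equalled or passed.

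C4b encodes C4, whose large fragment attaches to the target surface and takes part in the classical and lectin C3 convertase. C4b had 492 CPM (488 to 497) in GF cells and 495 CPM (491 to 499) in ff cells, a log2 ratio of -0.01 (-0.03 to 0.01). Its close relative C4a, identical at 96.0% of aligned transcript bases, had 1.14 CPM in GF and 0.606 CPM in ff, and adding it to C4b left the log2 ratio at -0.01. C4b lies at chr17:34728380-34743882. It was highest in the Stmn2-led cluster, at 1178 CPM in GF and 999.9 CPM in ff, and in the Sfrp2-led cluster, at 999 CPM in GF and 781 CPM in ff. Low levels were found in the Foxl1-high-like clusters, at 26.5 CPM in GF and 20.7 CPM in ff in the Wif1-led cluster and at 26.6 and 14.0 CPM in the Nrg1-led one. The highest cluster was 71.3 times the lowest in ff, and 7 of 14 neighbours in the order overlapped over the libraries. C4b was intermediate in the adventitial or submucosal fibroblast-like clusters, with 281 CPM in GF and 439 CPM in ff in the Cmah-led cluster and 181 and 229 CPM in the Cilp-led one. The lamina propria fibroblast-like clusters had 530.2 to 655 CPM in GF and 468 to 714 CPM in ff.

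Within clusters C4b differed by 1.5-fold in a few, in both directions. It was at least 1.5-fold higher in GF in 2 of 15, the Myoc-led (242 CPM in GF and 127 CPM in ff, log2 0.93, interval 0.80 to 1.07) and the Nrg1-led (0.88), and 16.8% of the 4792 genes were that much higher in at least as many clusters. It was that much lower in 1, the Cmah-led (-0.64, interval -0.72 to -0.58), which 29.6% of the genes equalled or passed. The Nrg1-led value rests on 32 UMIs in GF and 79 in ff, and its levels lie below the 112 CPM of C4b in ff lymphocyte-like cells; GF lymphocyte-like cells had 11.4 CPM. Lymphocytes are not known as a source of C4, and the level in them is read here as background. In ff, however, it rests on 106 cells and exceeds the C4b level of the Wif1-led (20.7 CPM) and Actg2-led (63.2 CPM) clusters. It is thus no floor shared by all ff cells, and what it stems from was not tested.

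C3 is the central component: its cleavage releases the peptide C3a and leaves C3b on the target. It lies at chr17:57203970-57228136. Over all gated cells C3 had 1486 CPM (1478 to 1494) in GF and 944 CPM (938 to 949) in ff, a log2 ratio of 0.65 (0.64 to 0.67). With Cfb and Cfd it was 1 of 3 measures at least 1.5-fold higher in GF, and 0 of 7 were that much lower; of 14841 genes measured, 4.86% were that much higher and 5.27% that much lower. The make-up of the pools differed between the libraries as well. The Ntrk3-led and Cmah-led clusters, where C3 was highest, held 7.84 and 9.37% of gated GF cells, against 3.85 and 8.54% of gated ff cells. The Wif1-led and Nrg1-led clusters, where it was lowest, held 6.59 and 1.27% of gated GF cells, against 13.3 and 4.44% of gated ff cells. With the GF clusters weighted by their ff shares, the log2 ratio of C3 was 0.24, and with each cell thinned to 2000 UMIs it was 0.48, so under either C3 no longer reached 1.5-fold. In pooled cells, the share of a cell type and the level per cell cannot be told apart, which is why values by cluster follow.

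C3 formed steep steps between clusters that both libraries shared. The 4 highest clusters in each library were the Cmah-led (4127 CPM in GF, 4106 in ff), Ntrk3-led (3478 and 3731), Cilp-led (2990.2 and 2822) and Myoc-led (1883 and 1831), and they include both clusters named adventitial or submucosal fibroblast-like. The Cxcl9-led cluster followed with 1431 CPM in GF and 809.9 CPM in ff. The Foxl1-high-like clusters were lowest, at 28.0 CPM in GF and 26.9 CPM in ff in the Wif1-led cluster and 33.3 and 20.6 CPM in the Nrg1-led one. The highest cluster was 147 times the lowest in GF and 199 times in ff. In the lymphocyte-like cells C3 stood at 42.7 CPM in GF and 45.0 CPM in ff, and the Foxl1-high-like clusters were not above these levels. The lymphocyte-like cells were shallower, with a median of 2585 UMIs in GF and 4474.5 in ff, against 7259 and 8253 in the Wif1-led cluster. Levels were not adjusted for this, and whether C3 in the lowest clusters is background was not tested. Of 14 neighbours in the order, 8 overlapped over the libraries.

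Within clusters, the C3 difference between libraries was found in some and not in others. In the 4 highest clusters GF and ff lay close, with log2 ratios from -0.10 to 0.08. In the reticular or lymphoid-organising stroma-like Cxcl13-led cluster C3 had 1239.6 CPM in GF and 387 CPM in ff, a log2 ratio of 1.68 (1.63 to 1.73). In the Cd36-led cluster it had 156 CPM in GF and 52.1 CPM in ff (1.56), and in the Slc25a27-led cluster 508 CPM in GF and 251 CPM in ff (1.02). Both are named lamina propria fibroblast-like, but the third cluster of that name, the Col6a5-led, had 203 CPM in GF and 299 CPM in ff (-0.56).

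The clusters that came mostly from 1 library were higher in GF as well, with 376 CPM in GF and 178 CPM in ff in the Sfrp2-led cluster (1.07) and 411 and 215 CPM in the Stmn2-led one (0.93). The Cxcl9-led cluster had a log2 ratio of 0.82 and the Nrg1-led of 0.67, the last at levels under those of lymphocyte-like cells. C3 was thus at least 1.5-fold higher in GF in 7 of 15 clusters, and 2.53% of the 4792 genes were that much higher in at least as many. It was that much lower in 1, which 29.6% of the genes equalled or passed. Without the Cxcl13-led cluster the log2 ratio over the remaining gated cells was 0.59, against 0.65 with it.

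**Figure D2:**
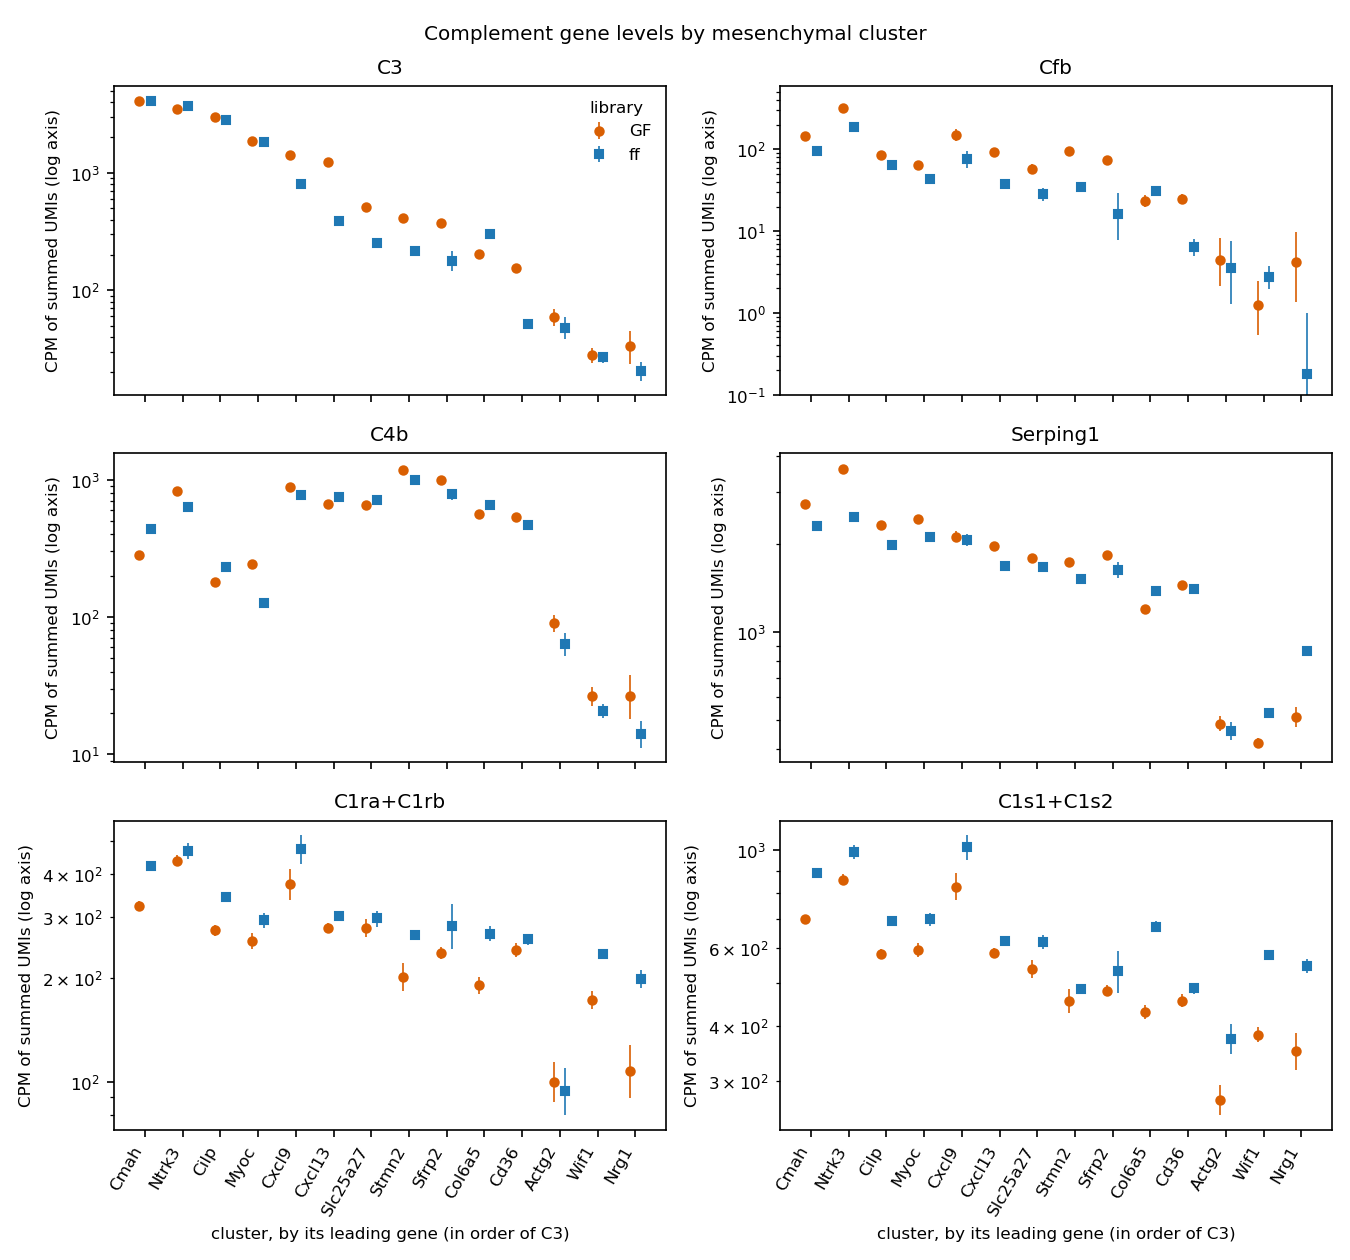
Level of 6 measures in each of 14 clusters (CPM of summed UMIs, log axes), GF as circles left of ff as squares, with 95% Poisson intervals; clusters are ordered by C3. C3 runs from 4127 CPM in GF and 4106 CPM in ff (Cmah-led) to 33.3 and 20.6 CPM (Nrg1-led), while C4b is highest in other clusters; the lower end of the Cfb interval in the Nrg1-led ff cells runs below the axis.

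**Figure D3:**
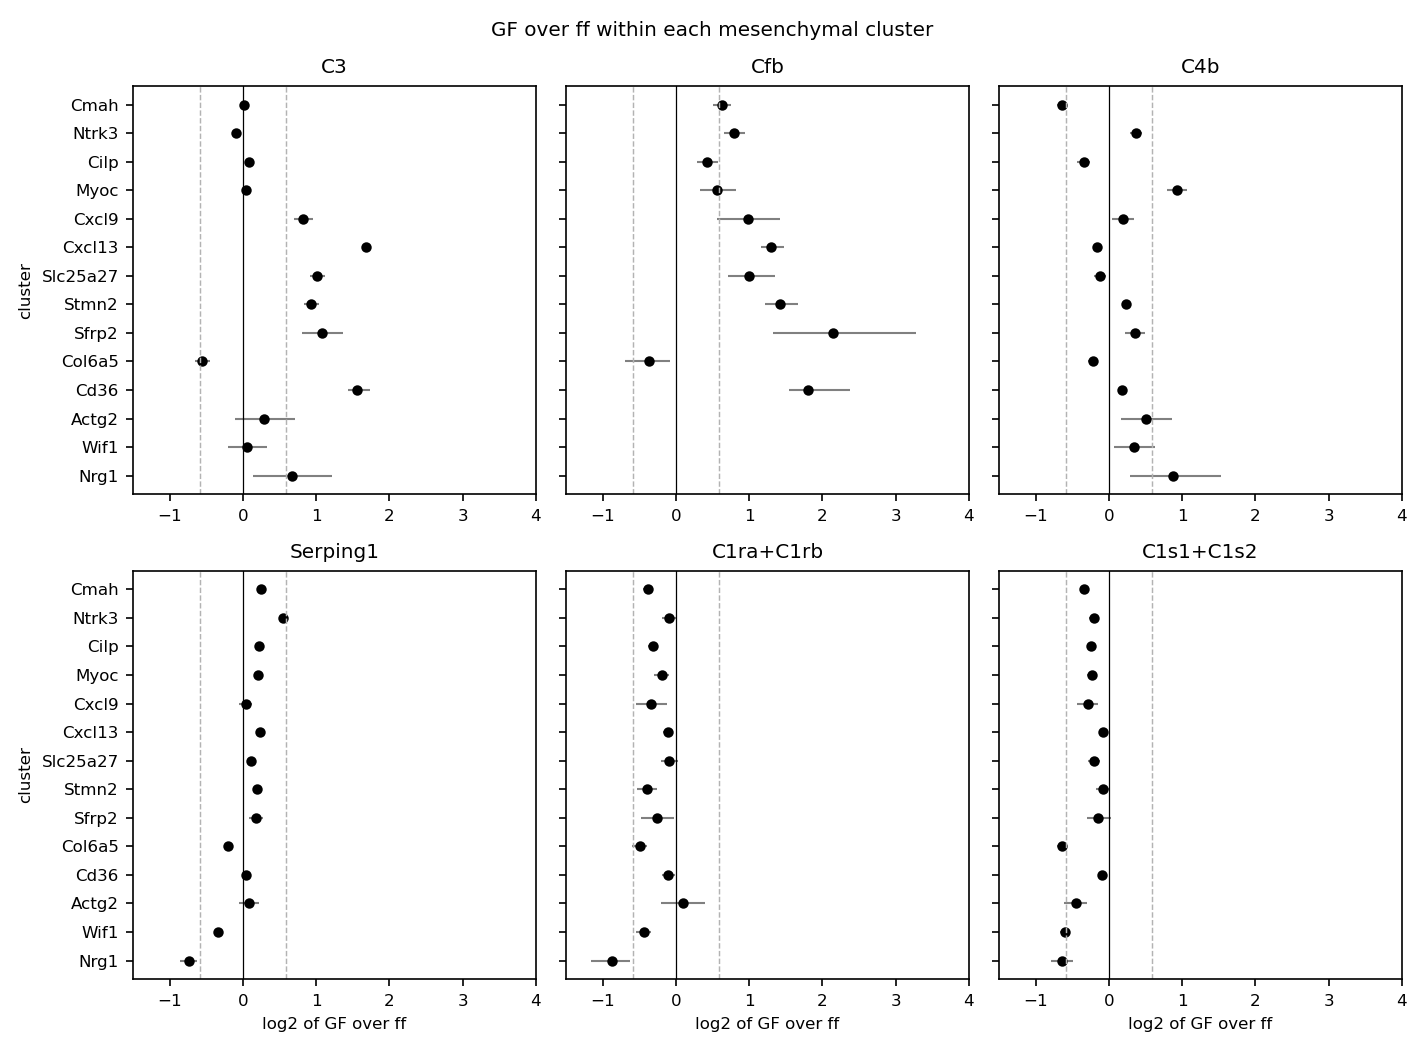
Log2 ratio of GF over ff in each of 14 clusters (points, after adding 1 CPM) with conditional binomial intervals without the added CPM (lines); dashed lines mark 1.5-fold and values with fewer than 10 UMIs in a library are not drawn. C3 lies near 0 in the 4 clusters at the top and at 1.68 in the Cxcl13-led cluster, and C1s1+C1s2 lies below 0 throughout.

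C3 and C4b were distributed differently over the clusters. The ratio of C3 to C4b UMIs was 16.6 in GF and 12.3 in ff in the Cilp-led cluster, 14.7 and 9.35 in the Cmah-led, 7.79 and 14.5 in the Myoc-led and 4.24 and 5.89 in the Ntrk3-led cluster. It was above 1 in both libraries, but lower, in the Cxcl9-led cluster (1.62 and 1.05) and, at low levels of both genes, in the Wif1-led and Nrg1-led clusters. It was below 1 in both libraries in the clusters led by Slc25a27, Actg2, Sfrp2, Col6a5, Stmn2 and Cd36, with the lowest value in the Cd36-led cluster, at 0.293 in GF and 0.111 in ff. The clusters thus fall on either side of an equal number of UMIs in the same way in both libraries, except for the Cxcl13-led, which had 1.85 in GF and 0.515 in ff. Transcripts are counted at their 3′ ends without regard to length, and these ratios are read only between clusters. Over the 15 clusters, which share the depth and chemistry of their library, Pearson's r of log2(CPM + 1) of C3 with C4b was 0.57 in GF and 0.46 in ff.

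**Figure D4:**
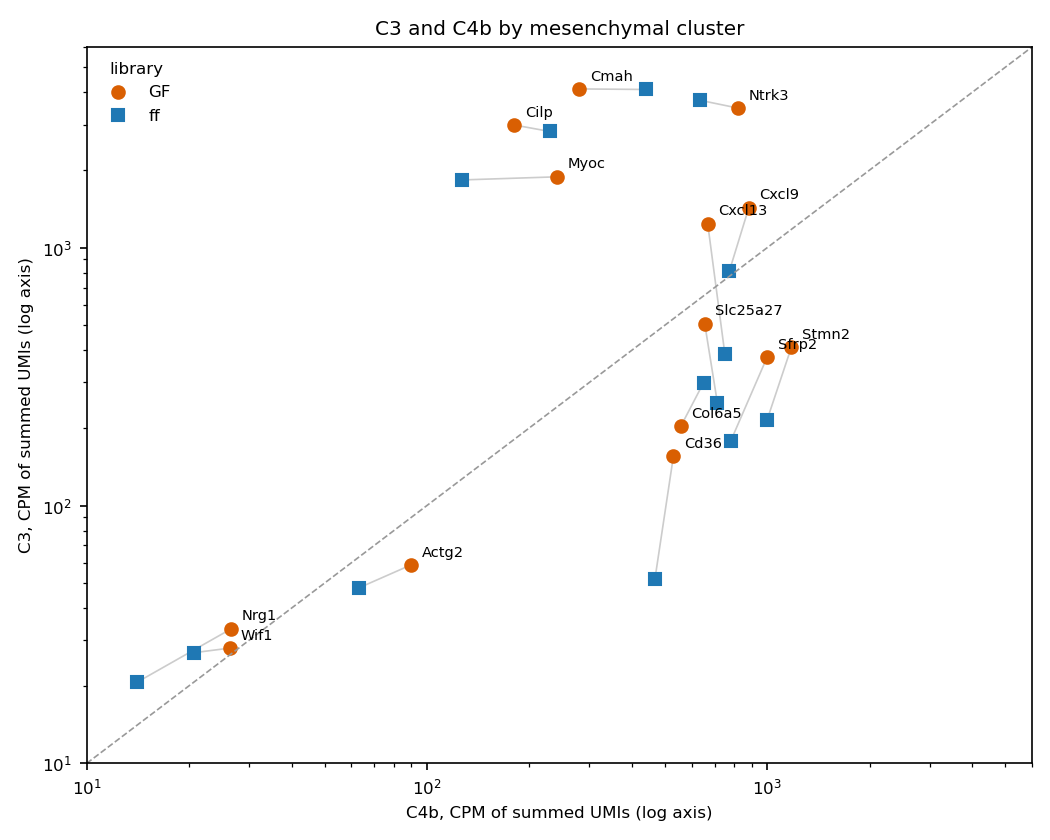
C3 against C4b in each of 14 clusters (CPM of summed UMIs, log axes), GF as circles and ff as squares, with a grey line joining the libraries of a cluster and a dashed line of equal UMIs. The Cilp-led, Cmah-led, Myoc-led and Ntrk3-led clusters lie well above the dashed line in both libraries, and only in the Cxcl13-led cluster do the libraries lie on different sides of it.

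Cfb encodes factor B, which binds C3b and provides the protease of the alternative C3 convertase. It lies at chr17:34856374-34862518. Over all gated cells Cfb had 85.5 CPM (83.5 to 87.4) in GF and 37.2 CPM (36.0 to 38.3) in ff, a log2 ratio of 1.18 (1.15 to 1.26). With the GF clusters weighted by their ff shares, the log2 ratio was 0.90. Cfb was highest in the Ntrk3-led cluster, at 326 CPM in GF and 187 CPM in ff. The next highest was the Cxcl9-led cluster in GF, at 151 CPM (76.0 in ff), and the Cmah-led cluster in ff, at 95.3 CPM (147 in GF). It was lowest in the Foxl1-high-like clusters, at 1.25 CPM in GF and 2.77 CPM in ff in the Wif1-led cluster and 4.16 and 0.178 CPM in the Nrg1-led one, and low as well in the Actg2-led cluster (4.49 and 3.51). The lymphocyte-like cells had 3.88 CPM in GF and 4.61 CPM in ff, so these 3 clusters lie near or under that level. The highest cluster was 260.05 times the lowest in GF and 1055 times in ff, where the lowest rests on 1 UMI, and 12 of 14 neighbours in the order overlapped over the libraries.

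Cfb was at least 1.5-fold higher in GF in 10 of 15 clusters, and 1.19% of the 4792 genes were that much higher in at least as many. Those genes reached the minimum of UMIs in every cluster, and Cfb did not. It had 5 UMIs in GF and 1 in ff in the Nrg1-led cluster, and 10 and 6 in the Actg2-led one. Shares of these genes are thus no like-for-like measure for Cfb, and how unusual its counts of clusters are was not tested. The log2 ratio was 1.80 in the Cd36-led cluster (24.8 CPM in GF, 6.38 in ff), 1.42 in the Stmn2-led (94.5 and 34.8) and 1.30 in the Cxcl13-led cluster (93.0 and 37.3), and the Slc25a27-led cluster had 57.7 CPM in GF and 28.3 CPM in ff. It was 0.98 in the Cxcl9-led cluster, 0.79 in the Ntrk3-led and 0.62 in the Cmah-led, where C3 had log2 ratios of 0.82, -0.10 and 0.01. Of the 10, the Sfrp2-led value (2.15, 74.7 CPM in GF and 16.0 in ff) rests on 10 UMIs in ff, and the Nrg1-led (2.13) on 5 in GF and 1 in ff. The Wif1-led cluster was the only one at least 1.5-fold lower in GF (-0.74, with 8 UMIs in GF and 38 in ff), a call found neither at Leiden resolution 2 nor with the Jaccard-weighted graph, and 29.6% of the genes were that much lower in at least 1 cluster. The Col6a5-led cluster, in which C3 was lower in GF, had a Cfb log2 ratio of -0.37, with 23.6 CPM in GF and 30.9 CPM in ff. Over clusters the levels of Cfb and C3 ran side by side, with a Pearson r of 0.91 in GF and 0.85 in ff.

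Cfd encodes factor D (adipsin), the protease that cleaves bound factor B, and is known for its high level in fat cells. It lies at chr10:79890853-79892655. It had 431 UMIs in 7 gated GF cells (4.87 CPM) and 2 UMIs in 2 gated ff cells (0.0187 CPM). Of the 431 UMIs, 425 came from 1 cell of the Cilp-led cluster, and without it the remaining 6 UMIs gave 0.0678 CPM. That cell held 15164 UMIs in all, with 36 of Adipoq, 5 of Plin1, 37 of Cidec, 247 of Car3 and 205 of Fabp4, genes known from fat cells, but 0 of Col1a1, 1 of Col1a2 and 15 of Col3a1. These fat cell genes were chosen after the Cfd values were seen. A retained GF cell outside the gate, with 1054 UMIs, held a further 23 Cfd UMIs and 3 of Adipoq. With each cell thinned to 2000 UMIs, Cfd was found in 2 of 12374 GF cells and in 0 of 11657 ff cells, which allows a share of up to 0.0257% of ff cells with a UMI at this depth and sets no limit on the cells that express the gene. Cfd was thus hardly detected in gated cells outside 1 cell, and its call as higher in GF rests on that cell.

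Serping1 encodes the C1 inhibitor, a serpin that removes C1r and C1s from the activated C1 complex. It lies at chr2:84765387-84775444. Serping1 had 1966 CPM (1957 to 1975) in GF cells and 1536 CPM (1528 to 1543) in ff cells, a log2 ratio of 0.36 (0.35 to 0.37), and 0.15 with the GF clusters weighted by their ff shares. In GF it was highest in the Ntrk3-led cluster, at 3601 CPM in GF and 2467 CPM in ff, and the Cmah-led cluster had 2733 CPM in GF and 2299.8 CPM in ff. It was lowest in the Wif1-led cluster, at 418 CPM in GF and 528 CPM in ff, the Actg2-led, at 487 and 459.8 CPM, and the Nrg1-led, at 513 and 859.7 CPM. Its span over clusters in GF, 8.62 times, was far narrower than that of C3, and every cluster stood above the lymphocyte-like cells, which had 51.8 CPM in GF and 232 CPM in ff. Of 14 neighbours in the order, 9 overlapped over the libraries. Serping1 was at least 1.5-fold lower in GF in 1 cluster, the Nrg1-led (-0.74), which 29.6% of the 4792 genes equalled or passed, and that much higher in none; its highest log2 ratio was 0.55, in the Ntrk3-led cluster.

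By the number of measures past 1.5-fold in both libraries, the Ntrk3-led and Cxcl9-led clusters stood at the upper end. The Actg2-led and Foxl1-high-like clusters stood at the lower end. Against all other gated cells of the same library, 5 of the 7 measures were at least 1.5-fold higher in both libraries in the Ntrk3-led cluster (both pairs, C3, Cfb and Serping1), against 2.98% of the 13240 genes measured. The median log2 ratio over all those genes was -0.38 in GF and -0.19 in ff in that cluster, so most genes lay lower there. Cfb had 326 CPM in the Ntrk3-led cluster and 68.7 CPM in other gated cells in GF, and 187 and 33.1 CPM in ff. C4b missed the mark, with 819 CPM in the Ntrk3-led cluster and 469.6 CPM in other gated cells in GF, and 633 and 491 CPM in ff. In the Cxcl9-led cluster, with 131 gated GF and 93 gated ff cells, 3 measures were higher, the C1s pair, C4b and Cfb, against 3.25% of genes. C3 was not among them, at 1431 CPM in GF and 809.9 CPM in ff, below its level over all gated cells. The Cmah-led cluster was higher in 2 measures, C3 and Cfb, against 4.67% of genes, and the Cilp-led higher in C3 (2.80% of genes) and lower in C4b (11.3% of genes).

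In the Actg2-led cluster 6 of 7 measures were at least 1.5-fold lower in both libraries, all except Cfd, against 13.6% of genes. The Wif1-led and Nrg1-led clusters were lower in 4 (C4b, C3, Cfb and Serping1), against 11.5 and 12.1% of genes. In the Wif1-led cluster C3 had 28.0 CPM, against 1599 CPM in other gated cells in GF, and 26.9 against 1078 CPM in ff. The proteases of C1 did not pass this mark there in both libraries: C1s1 and C1s2 together had 382 CPM in the Wif1-led cluster in GF and 580 CPM in ff.

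Among the lamina propria fibroblast-like clusters, the Cd36-led was lower in C3 and Cfb (6.72% of genes), and the Col6a5-led and Slc25a27-led in C3 (5.79 and 7.20%). The unnamed Stmn2-led and Sfrp2-led clusters were higher in C4b (1.65 and 1.48%) and lower in C3 (7.26 and 6.41%), and the Myoc-led was lower in C4b (9.18%). None of the 7 passed the mark in the Cxcl13-led cluster in both libraries.

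The share of gated cells that held a UMI of a measure was set beside the share in lymphocyte-like cells, read here as background. After thinning each cell to 2000 UMIs, which left out 333 gated GF and 201 gated ff cells, a Serping1 UMI was found in 90.8% of gated GF cells (90.3 to 91.3) and 88.5% of gated ff cells (87.9 to 89.0), and unthinned in 97.6 and 98.3%. In lymphocyte-like cells, whose median was 2585 UMIs in GF and 4474.5 in ff, the thinned share was 3.70% in GF and 15.1% in ff. A C3 UMI was found in 53.0% of gated GF cells (52.1 to 53.9) and 39.0% of gated ff cells (38.1 to 39.9), and unthinned in 64.2 and 54.8%. The lymphocyte-like cells had 4.19% in GF and 9.43% in ff, where only 106 such cells were counted. C3 was found in 99.4% of thinned Cmah-led cells in GF and 99.0% in ff, and in 61.1% of thinned Cxcl13-led cells in GF and 31.1% in ff. In the Wif1-led cluster it was found in 3.35% of cells in GF and 3.95% in ff, at or below the lymphocyte-like share. A Cfb UMI was found in 12.8% of thinned gated GF cells and 6.91% of ff cells, against 0.195 and 0.943% of lymphocyte-like cells. A C4b UMI was found in 45.3% of thinned gated GF cells (44.4 to 46.1) and 42.2% of ff cells (41.3 to 43.1), although its level was 492 CPM in GF and 495 CPM in ff. C4b was found in 77.1% of thinned Stmn2-led cells in GF and 72.5% in ff, and in 21.3% of Cilp-led cells in GF and 24.5% in ff. Cfd was hardly found in gated cells of either library, as above.

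The genes whose levels over clusters were most like those of each member were ranked by Pearson's r of log2(CPM + 1) over 15 clusters in each library, each centred on its own mean, among 10716 genes. For C3 they were Arsi (0.929), Fmnl1 (0.928) and Nova1 (0.927). For Cfb they included Col14a1 (0.917) and Pi15 (0.913). For C4b they were Gabra3 (0.928), Adamts2 (0.925) and Scpep1 (0.921), and for Serping1 Gsn (0.935), Npc2 (0.924) and Slc1a5 (0.904). The C1r pair was most like Fndc4 (0.898), Tmcc3 (0.868) and Rpn2 (0.863), and the C1s pair most like Panx1 (0.849), Ly6a (0.839) and Slc43a3 (0.837). These lists shared no gene with each other, those of C3 and Cfb included, so they do not set C3 and C4b apart.

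Of 51 other complement genes listed, 50 were found and 29 had at least 50 UMIs in gated cells. Of these 29, 1 was at least 1.5-fold higher in GF (4.86% of all genes were) and 3 that much lower (5.27%), with a median log2 ratio of 0.15, against 0.02 over all 14841 genes. Components that complete the classical pathway were low. C1qa, a chain of C1q known from macrophages, had 2.85 CPM in GF and 1.77 CPM in ff, C1qb had 1.27 and 1.59 CPM, and C2, the partner of C4 in the C3 convertase, had 10.6 and 10.0 CPM. C2 was highest in the Ntrk3-led cluster, at 30.6 CPM in GF and 46.7 CPM in ff. C1rl, a relative of C1r, had 13.1 CPM in GF and 11.2 CPM in ff.

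In the lectin pathway, Colec12, a scavenger receptor with a collagen-like stalk, had 226 CPM in GF and 151 CPM in ff (log2 0.58). Masp1, a protease of that pathway, had 14.4 CPM in GF and 24.4 CPM in ff (-0.72) and was highest in the Wif1-led cluster, at 32.4 CPM in GF and 85.5 CPM in ff, where C3 and C4b were near their lowest. Colec10 had 0.735 CPM in GF and 1.39 CPM in ff. Cfp, which encodes the stabiliser properdin, had 2.28 CPM in GF and 2.88 CPM in ff. Of 7 late components 3 were measured, C6, C7 and C8g; C7 had 3.54 CPM in GF and 3.11 CPM in ff.

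Among regulators found in fluid, Clu had 11.7 CPM in GF and 12.4 CPM in ff, and Vtn 2.34 and 2.14 CPM. Cd55, a membrane protein that breaks up convertases, had 509 CPM in GF and 425 CPM in ff and was highest in the Cmah-led cluster in GF (1258 CPM) and the Cilp-led cluster in ff (956 CPM). Cr1l, the rodent membrane regulator Crry, was spread evenly, from 58.5 to 85.4 CPM over clusters in GF and from 45.7 to 70.3 CPM in ff. Thbd was highest in the Wif1-led cluster, at 1446 CPM in GF and 841 CPM in ff. Cd59a, which blocks the membrane attack complex, was the gene at least 1.5-fold higher in GF, with 21.2 CPM in GF and 7.44 CPM in ff (log2 1.40, interval 1.39 to 1.63 without the added CPM), and was highest in the Actg2-led cluster, at 166 and 72.0 CPM. Its relative Cd59b had 1.75 CPM in GF and 1.31 CPM in ff, and a division of reads between these copies was not tested. The genes that were that much lower were Masp1, Cpn1 (0.350 CPM in GF, 1.45 in ff) and C5ar2 (0.147 and 0.802); Cpn1 and C5ar2 were named after their values were seen. C5ar1, a receptor of C5a, had 4.53 CPM in GF and 4.12 CPM in ff and was highest in the Nrg1-led cluster, at 22.5 CPM in GF and 17.1 CPM in ff.

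None of 11 cytokine receptors and factors listed as known regulators of complement genes differed by 1.5-fold over the gated cells. Of all genes measured, 4.86% were that much higher in GF and 5.27% that much lower, so none among 11 lies near these shares. Cebpd had 2025 CPM in GF and 1556 CPM in ff, Nfkbia 1209 and 1495 CPM, Cebpb 670 and 711 CPM and Irf1 469 and 519 CPM. Cebpd was highest in the Ntrk3-led cluster in GF, at 3303 CPM, and in the Cxcl13-led cluster in ff, at 2095 CPM. Whether these levels bear on those of C3 or Cfb was not tested.

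**Figure D5:**
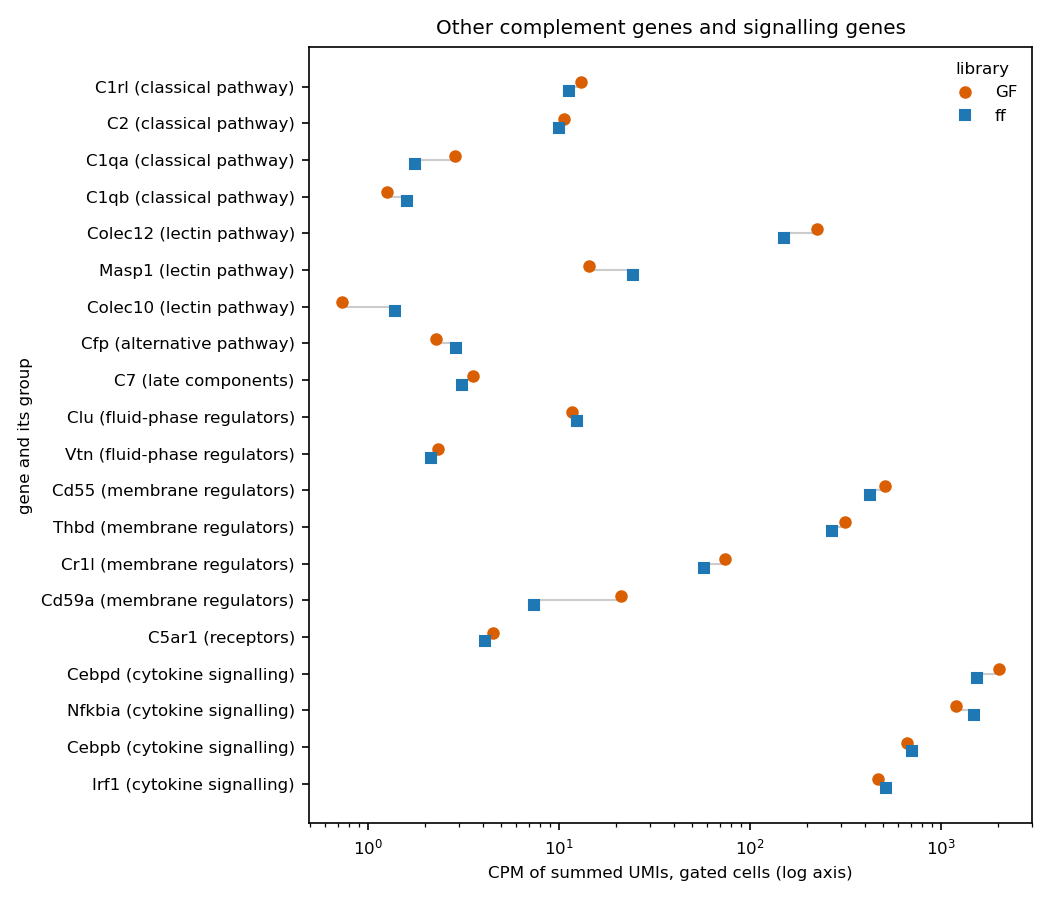
Level over all gated cells of other complement genes named by the rule and of 4 signalling genes (CPM of summed UMIs, log axis), GF as circles above ff as squares. Cd59a shows the widest gap, at 21.2 CPM in GF and 7.44 CPM in ff.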

How the data were processed

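Per the labels, cells were captured with the droplet 3′ chemistry of 10x Genomics, and the submitters' processing notes name Cell Ranger 6.0.0 and mm10, without a gene annotation release in the sources used here. The tables deposited by the authors hold raw UMI counts per Ensembl gene and barcode, not normalized, with at least 500 UMIs per barcode. They held 105331294 UMIs in GF and 119866589 UMIs in ff. Symbols were matched for 32158 of 32285 genes, and coordinates come from GENCODE vM21 (GRCm38, the assembly of mm10).

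Cells with at least 500 genes, 1000 UMIs and at most 10% mitochondrial UMIs were kept (15066 GF, 12702 ff), and Scrublet in scanpy 1.11.5 removed 780 GF and 550 ff doublets. Counts scaled to 10000 per cell were clustered over 2000 variable genes (complement genes left out), 30 components, 15 exact neighbours with scanpy's default weights and Leiden resolution 1 (leidenalg 0.10.2). Before the components were taken, each gene was centred and scaled within each library on its own. That step bears on which GF and ff cells share a cluster, and clusters without it were not tested. This clustering was settled after others, with members' values, had been seen: runs with approximate neighbours, set aside because they could not be repeated exactly, and a graph with Jaccard weights, whose clusters were divided more by library and which is kept as an alternative. A cluster was named from at least 3 markers at 2-fold or more, at least 1 of them among its 20 leading genes, with no other class ahead among its first 10. The 5 lymphocyte-like clusters outside the gate served as background. Their cells were shallower than the gated cells, and levels were not adjusted for this.

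Levels are counts summed over gated cells per 1000000 UMIs, with exact 95% Poisson intervals. Log2 ratios add 1 CPM, and their conditional binomial intervals do not, so the ratio of a low gene is understated. Shares have Clopper-Pearson intervals. Genes needed at least 50 UMIs over both libraries. The ratio step was tested on simulated data. A limit from a count of 0 is 3 counts. Sequences were aligned with biopython 1.88. Alternatives were another gate, cell filter, scaling, pseudocount, thinning, weighting of clusters, treatment of copies, minimum, clustering resolution and graph.

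All 9 members are named; of the other complement genes, up to 4 per group with at least 200 UMIs, and any other with a log2 ratio of 1 or more in size; for each member, the 3 genes most like it and its 2 highest and 2 lowest clusters. The members, lists and rules were chosen with earlier results of these data known. Among the items these rules name, 1 of the 15 clusters (counted and fitted with the others, but not drawn) and 1 other complement gene are not reported here, nor is 1 of the motifs searched.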

Additional observations from a re-analysis of the deposited data

Results flagged for a closer look

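In the GF over ff comparison, C4b and Cfb moved in opposite directions in different clusters. The log2 ratio of C4b was highest in the unnamed Myoc-led cluster, at 0.93 (1263 UMIs in GF, 669 in ff), and lowest in the adventitial or submucosal fibroblast-like Cmah-led cluster, at -0.64 (2904 UMIs in GF, 3811 in ff). That of Cfb was highest in the unnamed Sfrp2-led cluster, at 2.15 (772 UMIs in GF, 10 in ff). It was lowest in the Foxl1-high-like Wif1-led cluster, at -0.74 (8 UMIs in GF, 38 in ff), where the Cfb level lies under that of lymphocyte-like cells. With 1 library per group these differences between clusters were not tested.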

How the results depend on the processing

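No paired analysis was possible because each group has 1 library. The level of all members together was 5140.2 CPM in GF and 3949 CPM in ff with the stricter cell filter, against 4838 and 3911 CPM as reported. With each copy on its own, 5 members were at least 1.5-fold higher in GF and 1 lower, against 3 and 0 as reported with copies added. Once GF clusters carried ff weights, and after thinning, 2 members were higher, and C3 was no longer one of them, at log2 ratios of 0.24 and 0.48. Without the 1 GF cell that held most Cfd UMIs and with the stricter gate or cell filter, 2 members were higher as well, and Cfd was lost, at 0.07, 0.07 and 0.05. Among the other complement genes, 2 were at least 1.5-fold higher in GF with the stricter gate and 7 without a pseudocount, and 1 was that much lower with a minimum of 500 UMIs. The shares of all genes given above hold for the reported settings only, so counts under other settings have no such share beside them. Over 13 alternatives the log2 ratio of C3 lay between 0.24 and 0.81, that of Cfb between 0.90 and 1.27 and that of Serping1 between 0.15 and 0.41. C4b lay between -0.06 and 0.10 and was positive in 4 of 14, among them thinning and the ff weights. Median-of-ratios scaling moved the median of all genes by 0.03 on the log2 scale.

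The graph with Jaccard weights gave 15 clusters in use, in which C3 was at least 1.5-fold higher in GF in 8 and lower in 2, against 7 and 1 of 15 as reported, and Cfb higher in 11, against 10. At Leiden resolution 2 C3 was higher in 9 of 21 and Cfb in 15. C4b and Cfb were that much lower in 0 clusters under either, against 1 each as reported. The shares of the 4792 genes given above hold for the reported clusters only, so these counts cannot be set against them. The lowest C4b log2 ratio was -0.54 with the Jaccard weights and -0.41 at resolution 2, against -0.64, and that of Cfb -0.26 and -0.56, against -0.74; clusters were not matched between the runs. The Jaccard graph and the alternatives without 1 GF cell, the Cxcl9-led cluster or the Cxcl13-led cluster were chosen after seeing the data. The cause of these shifts was not tested. Depth limits Cfb in the Nrg1-led, Actg2-led, Wif1-led and Sfrp2-led clusters, and Cfd throughout.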

Other observations

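Over the 15 clusters, the pairs C1ra+C1rb and C1s1+C1s2 had a Pearson r of log2(CPM + 1) of 0.92 in GF and 0.89 in ff, and C3 and Serping1 of 0.87 in GF and 0.81 in ff. Leaving Cfd out, C4b had its lowest r with Serping1 in GF (0.50) and with the C1s pair in ff (0.40). The clusters share their library's depth, and these values are descriptions.

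By marker class, C3 had 3553 CPM in GF and 3404 CPM in ff in adventitial or submucosal fibroblast-like clusters and 247 and 168 CPM in lamina propria fibroblast-like clusters. C4b had 230.2 CPM in GF and 324 CPM in ff in the adventitial or submucosal class, 566 and 574 CPM in the lamina propria class and 26.5 and 18.7 CPM in the Foxl1-high-like class. C1s1 and C1s2 together stood at 640.2 and 779 CPM, 463 and 569 CPM, and 377 and 570.0 CPM in the same 3 classes, GF before ff.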
